A study of Mus musculus with 6 samples.

Results

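The genes described here are 10 regulators of oxidative metabolism in muscle: the coactivator genes Ppargc1a, Ppargc1b and Pprc1, the muscle regulator Perm1, the peroxisome proliferator-activated receptor (PPAR) genes Ppara, Ppard and Pparg, and the estrogen-related receptor (ERR) genes Esrra, Esrrb and Esrrg. They were chosen by name, and all 10 were measured, out of 23152 genes on the array. Perm1 was found under its older name, 2310042D19Rik. Together they had 127 probe sets, the short groups of probes from which the array reads a transcript, of 233753 probe sets with a single gene symbol. No filter on low values was set, so every member was tested. For Ppard, 3 further probe sets that also carried another gene's symbol were left out.

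RNA came from the soleus, a slow, fatty acid burning hindlimb muscle, of male mice aged 18 weeks after an overnight fast of 14 h. The 3 control mice were Gna13 flox/flox (WT), and the 3 knockout mice were Ckmm-Cre; Gna13 flox/flox (MKO), with 1 array per mouse. Both groups thus carried the floxed alleles of Gna13, the gene of the G protein subunit Gα13. Only MKO carried Cre recombinase, driven by the muscle creatine kinase promoter, which is active in muscle fibres and not in the vessels, connective tissue or immune cells of the same sample. No Cre-bearing mice without floxed alleles were included, so an effect of Cre and one of the deletion cannot be told apart.

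PPARs and ERRs are nuclear receptors that bind DNA near genes of fatty acid use and respiration. PPARs pair with a retinoid X receptor (RXR) and are activated by fatty acids, whose supply to muscle rises with fasting, whereas ERRs have no known natural hormone and depend largely on coactivators. PGC-1 proteins, encoded by Ppargc1a and Ppargc1b, are such coactivators: they dock on PPARs, ERRs and nuclear respiratory factors and recruit the machinery that starts transcription.

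Values are log2 values from robust multi-array averaging (RMA), and a gene's value is the mean of its probe sets on an array. Array medians lay between 4.87 and 4.95. Muscle fibre markers had a list mean of 10.43 to 10.48 in WT and 10.38 to 10.50 in MKO. Of Gna13's 7 probe sets, 17257825 stood at 5.96 ± 0.41 in WT and 4.0 ± 0.50 in MKO (SD, n = 3), with every MKO array below WT. Every MKO array lay above WT for 17257829 (8.20 ± 0.04 and 8.87 ± 0.11), 17257828 (8.57 ± 0.10 and 9.09 ± 0.14) and 17257824 (6.83 ± 0.21 and 7.49 ± 0.10). The other probe sets overlapped, and the gene mean was 6.73 ± 0.20 and 6.77 ± 0.14. The exon each probe set reads was not known, so this does not settle the genotype. With limma and Benjamini-Hochberg adjustment, 0 of 23152 genes passed an adjusted p of 0.05, and 4.33% of genes had an unadjusted p under 0.05. A local pooled error test, the kind named in the series' design text, called 25 genes and none of the 10 regulators. On simulated data, with independent noise drawn from each gene's own SD, it called 105 of 22952 unchanged genes, where limma called 3. Its 25 calls may include false ones, but their number cannot be read from a simulation that gave more than 25 false calls.

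None of the regulators differed between the genotypes by the test. Of the 10, 6 had a higher mean in MKO and 4 a lower one, although Pprc1 and Esrra, among the lower ones, turned higher with quantile normalization or median centring. The regulators had a median difference of 0.05 on the log2 scale against −0.01 over all genes. With limma 0 of 10 passed the adjusted threshold (adjusted p = 0.9997 or higher for each) and 0 of 10 had an unadjusted p under 0.05, where the share over all genes was the 4.33% given above. The 3 MKO arrays lay above the 3 WT arrays for Ppara and Esrrg and overlapped WT for the other 8 regulators. Over all genes, 4.26% had every MKO array above WT, 4.99% every MKO array below it, and 9.25% either. After quantile normalization Ppara and Esrrg overlapped too. Ppara then read 6.78 in MKO replicate 2 against 6.79 in WT replicate 3, and Esrrg 6.70 in MKO replicate 3 against 6.80 in WT replicate 3. For every regulator the 95% interval of the difference included 0, and its widest bounds were a 1.47-fold higher value, for Ppargc1a and Ppara, and a 0.656-fold value, for Esrrb. The intervals were narrower for others, such as Perm1 at 0.839-fold to 1.11-fold. A difference inside a gene's own interval was not resolved with 3 arrays per group.

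**Figure D1:**
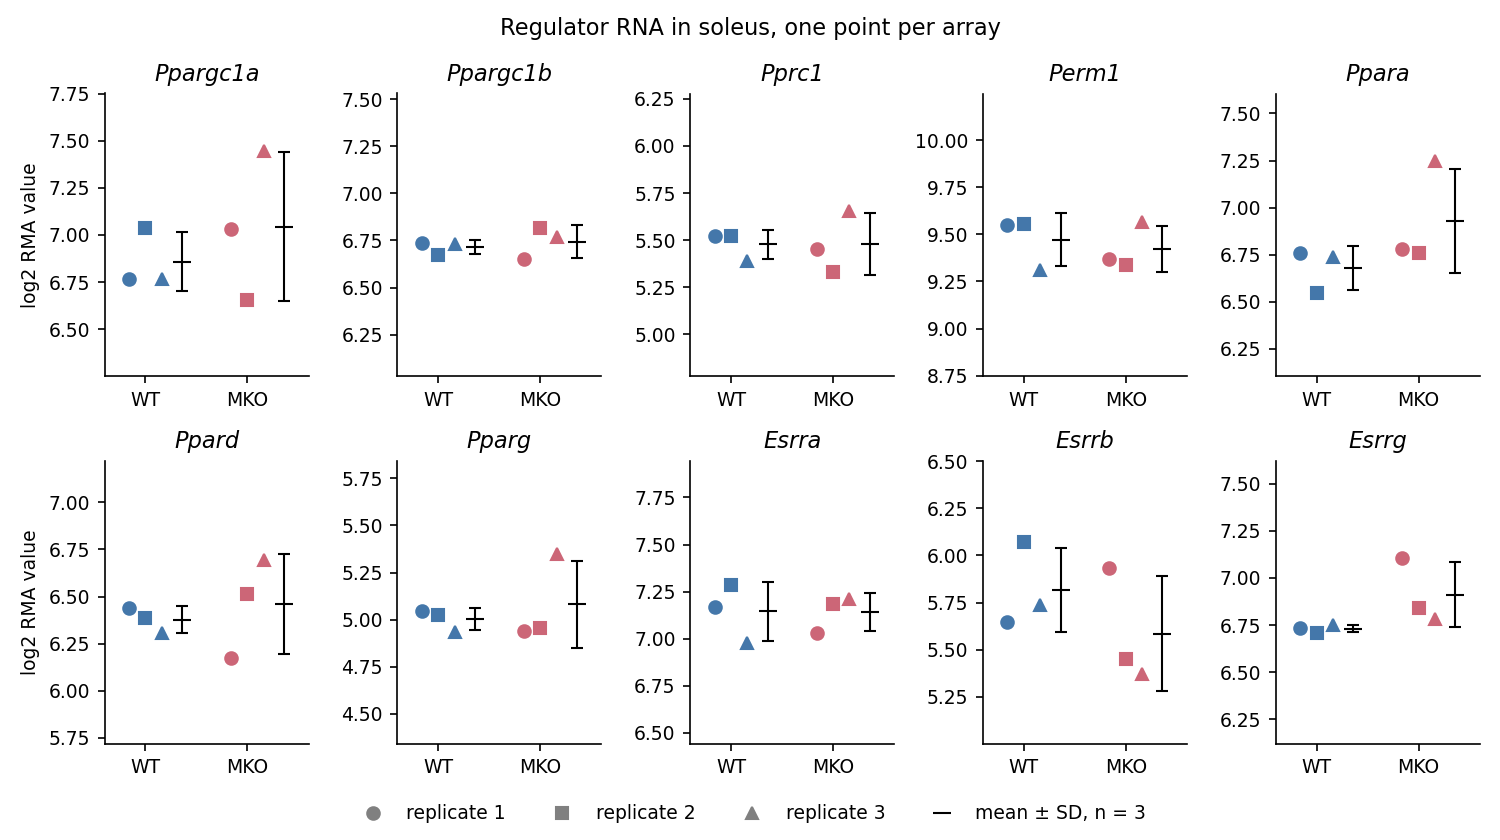
Log2 RMA value of each regulator on each array, with 1 point per mouse and the mean ± SD (n = 3) beside each group; all panels span the same range of 1.5 log2 units on their own scale. The triangle of MKO replicate 3 is the highest point for 6 of the 10 genes, and the groups separate only for Esrrg and, by less than 0.01, for Ppara.

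Ppargc1a encodes PGC-1α, the inducible coactivator of mitochondrial biogenesis in exercised and fasted muscle. Its 3 WT arrays read 6.77, 7.04 and 6.77, and its 3 MKO arrays read 7.03, 6.66 and 7.44. The MKO arrays thus bracketed all WT arrays, with MKO replicate 2 the lowest and MKO replicate 3 the highest of the 6. The difference was 0.19 (SE 0.17, 95% interval −0.18 to 0.56, limma adjusted p = 0.9997), and it was −0.0127 without MKO replicate 3 and 0.38 without MKO replicate 2.

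The gene mean of Ppargc1a combined 2 kinds of probe set. Of its 17 probe sets, 13 lay above the median level of all probe sets (5.06), and all 13 were higher in MKO, by 0.06 to 0.46. The other 4 were dim and ranged from −0.84 to 0.44, with standard errors of 0.39 to 1.03. Among 4421 genes with 10 or more such bright probe sets, 0.226% had all of them higher in MKO and 0.837% had all of them lower; this count was made after the values were seen. Probe sets of a gene read the same 6 RNA samples and are not replicates of one another.

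Averaged over the 13 bright probe sets, Ppargc1a read 7.89, 7.78 and 7.68 in WT and 7.90, 7.94 and 8.42 in MKO. On this measure the groups no longer overlapped, although MKO replicate 1 lay just above WT replicate 1. The difference was 0.31 (SE 0.14, 95% interval −0.018 to 0.63, limma adjusted p = 0.9999). Without MKO replicate 3 it was 0.14 (SE 0.10), and 10 of the 13 probe sets were then higher in MKO, so that array supplied much of the size. Taking the median of all 17 probe sets gave 0.33 (SE 0.14), with an unadjusted p under 0.05 and a limma adjusted p = 0.9999. The probe set with the smallest p, 17448004, read 8.29, 8.16 and 8.13 in WT and 8.73, 8.43 and 8.73 in MKO, a difference of 0.43 (SE 0.15, adjusted p = 0.979). All 3 of its MKO arrays lay above WT. A test of whether the probe sets of a gene moved apart (limma diffSplice) gave an adjusted p = 1 for Ppargc1a.

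**Figure D2:**
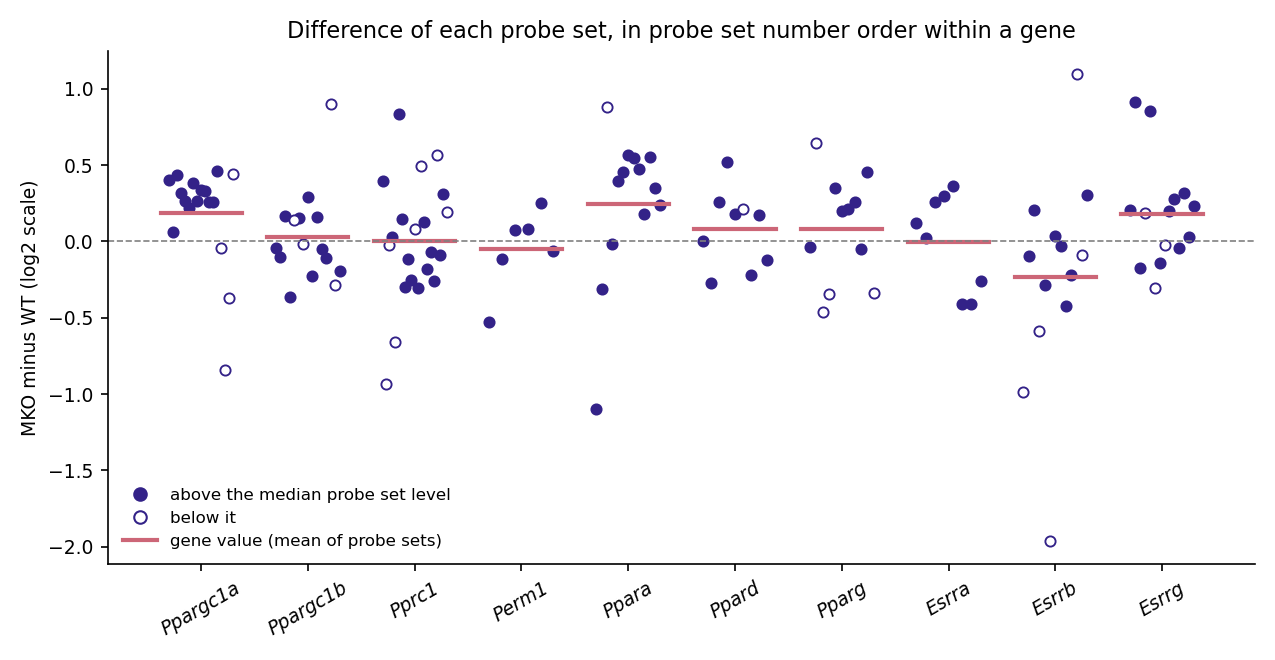
Difference between MKO and WT for each of the 127 probe sets, in log2 units, with filled points above the median probe set level, open points below it, and a bar at the gene value. All 13 filled points of Ppargc1a lie above 0, whereas its open points reach down to −0.84, and those of Esrrb span −1.96 to 1.10.

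Ppargc1b encodes PGC-1β, the related coactivator whose RNA responds less to exercise. Its arrays read 6.74, 6.67 and 6.73 in WT and 6.65, 6.82 and 6.77 in MKO. The groups overlapped within a range of less than 0.2, and the difference was 0.03 (SE 0.11, 95% interval −0.21 to 0.27, limma adjusted p = 0.9997). Of its 11 bright probe sets, 4 were higher in MKO, against all 13 for Ppargc1a, and the difference between the genes was not tested. Its probe set with the smallest p, 17354745, differed by 0.15 (SE 0.11), with overlapping arrays.

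Pprc1 encodes PRC, the other member of the coactivator family, linked to growth rather than fasting. It read 5.52, 5.52 and 5.39 in WT and 5.45, 5.33 and 5.65 in MKO. WT lay inside the MKO range, the means were 5.479 and 5.478, and the 95% interval of the difference ran from −0.30 to 0.30. Of its 21 probe sets, 10 were higher and 11 lower in MKO. Probe set 17359886 had the smallest p, with 4.85, 5.999 and 5.08 in WT and 6.19, 6.37 and 5.87 in MKO (0.84, SE 0.37, limma adjusted p = 0.979). Its WT arrays were widely spread, and WT replicate 2 lay inside the MKO range.

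Perm1 encodes a muscle protein induced by PGC-1 and ERR that in turn supports their targets. It read 9.55, 9.56 and 9.31 in WT and 9.37, 9.34 and 9.56 in MKO. WT replicate 3 and MKO replicates 1 and 2 formed the low end, and the difference was −0.05 (SE 0.09, 95% interval −0.25 to 0.15, limma adjusted p = 0.9997). All 6 of its probe sets were bright, and 3 were higher. Probe set 17422912 had the smallest p, with 10.13, 10.36 and 10.24 in WT and 10.55, 10.45 and 10.47 in MKO (0.25, SE 0.10, adjusted p = 0.979). At the other end 17422908 differed by −0.53 (SE 0.35).

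The upstream sequences of Ppargc1a and Perm1 are shown because these are the members whose genes are described as targets of the pathway's own inputs: cAMP and calcium signals act on Ppargc1a, and ERRs on Perm1. Each is the 250 bases before an annotated start in RefSeq (GRCm38.p6), 5′ to 3′ on the gene's strand. Windows of Ppargc1a or Perm1 without a motif match were not kept, so another annotated start of either gene may be missing here. Ppargc1a lies on the minus strand at chr5:51567726-51567975 and Perm1 on the plus strand at chr4:156215677-156215926. Capitals mark matches to the motif letters listed below, and none of them is shown here to be bound.
Ppargc1a: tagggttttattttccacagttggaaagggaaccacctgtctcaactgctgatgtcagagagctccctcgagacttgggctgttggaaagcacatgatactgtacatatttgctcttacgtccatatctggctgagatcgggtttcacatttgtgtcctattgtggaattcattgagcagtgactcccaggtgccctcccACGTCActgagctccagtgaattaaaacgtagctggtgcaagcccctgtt
Perm1: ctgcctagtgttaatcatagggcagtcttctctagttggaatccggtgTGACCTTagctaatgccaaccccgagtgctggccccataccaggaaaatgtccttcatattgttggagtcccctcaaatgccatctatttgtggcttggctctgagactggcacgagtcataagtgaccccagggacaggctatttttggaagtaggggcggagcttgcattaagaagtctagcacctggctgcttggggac

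The motif letters were searched on both strands in 32851 RefSeq promoters of the same length, 15 of which belonged to 9 of the regulators. The letters TGACGT, from the cAMP response element, occurred in 1 of these 15 and in 6.47% of all promoters. That match was on the minus strand of the Ppargc1a sequence shown, starting 50 bases before the start site of that window. An ERR half-site, AAGGTCA, was present among these 15 in Perm1 alone and in 4.08% of all promoters. In the Perm1 sequence shown it lay on the minus strand, starting 202 bases before the start site of that window. The site of MEF2, a muscle transcription factor that calcium signals activate, occurred in Esrrg and in 2.92% of promoters. The longer ERR letters TCAAGGTCA, which contain AAGGTCA, matched none of the 15 and 0.387% of all promoters. These motifs were chosen with the sequences in view, and a missing match says only that the letters are not in this window.

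Among the receptors, PPARα, encoded by Ppara, drives fatty acid oxidation genes during fasting. Ppara read 6.76, 6.55 and 6.74 in WT and 6.78, 6.76 and 7.25 in MKO. Every MKO array lay above every WT array, but MKO replicate 2 exceeded WT replicate 1 by only 0.000514, and MKO replicate 3 stood well above the rest. Its difference of 0.25 (SE 0.14, 95% interval −0.061 to 0.56, limma adjusted p = 0.9997) was the largest of the 10 and had the smallest p, although 2260 other genes had a smaller one. It was 0.09 without MKO replicate 3. With the median of the probe sets it was 0.05 (SE 0.15). Of its 13 probe sets, 10 were higher in MKO, and the 17313863 probe set, at 6.02, 2.94 and 4.85 in MKO against 5.97, 5.18 and 5.95 in WT, had the lowest difference, −1.10 (SE 0.69). The probe set with the smallest p, 17313871, read 7.74, 7.80 and 8.33 in WT and 8.27, 8.53 and 8.73 in MKO (0.55, SE 0.20, limma adjusted p = 0.979), with WT replicate 3 above MKO replicate 1.

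Ppard encodes PPARδ, the PPAR linked to oxidative fibres and endurance. Its arrays read 6.44, 6.39 and 6.30 in WT and 6.17, 6.51 and 6.69 in MKO, so that MKO held both the lowest and the highest value. The difference of 0.08 (SE 0.14, 95% interval −0.22 to 0.39, limma adjusted p = 0.9997) was −0.0337 without MKO replicate 3 and 0.23 without MKO replicate 1. Of its 9 probe sets 6 were higher, and the one with the smallest p, 17335301, differed by 0.26 (SE 0.23), with overlapping arrays.

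Pparg encodes PPARγ, the master regulator of fat cells, which macrophages and endothelium also express. It read 5.04, 5.03 and 4.93 in WT and 4.94, 4.96 and 5.35 in MKO, with 5 arrays close together and MKO replicate 3 above them. The difference of 0.08 (SE 0.15, 95% interval −0.25 to 0.41, limma adjusted p = 0.9997) was −0.0527 without that array. Of its 11 probe sets 6 were higher, and 17461947 had the smallest p, at 6.25, 6.25 and 6.03 in WT and 6.34, 6.51 and 6.72 in MKO (0.35, SE 0.24, limma adjusted p = 0.979). White adipocyte markers had their lowest list mean on that same array, 6.43, against 6.47 to 6.82 in WT and 6.50 and 7.08 in the other MKO arrays. Of those 10 markers 5 had a higher mean in MKO. On MKO replicate 3, Adipoq, a fat cell hormone, read 4.42 against 4.65 to 5.24 in WT. Plin1, Cidec, Cfd and Fabp4 also lay below every WT array there. Lipe, Gpd1 and Car3 lay above every WT array, and Lep and Retn lay inside the WT range. Macrophage markers were lower in MKO for 7 of 8 (list mean 5.23 to 5.53 in WT, 5.02 to 5.23 in MKO) and endothelial markers for 9 of 9 (6.71 to 7.09 and 6.56 to 6.86). Fibroblast markers were lower for 7 of 8 (7.83 to 8.20 and 7.52 to 7.92), and tendon cell markers for 4 of 5 (6.39 to 6.87 and 6.48 to 6.64). In each of these 4 lists 1 gene had an unadjusted p under 0.05, where 2.41% of all genes were lower at that p. Schwann cell markers were higher for 3 of 3 (3.96 to 4.10 and 4.15 to 4.26), with none at that p. The other lists were more mixed. Lower were 4 of 7 smooth muscle and pericyte, 3 of 5 satellite cell, 4 of 6 brown adipocyte and 6 of 10 muscle fibre markers. Over all genes 46.6% were higher in MKO. The part of any of these cell types in the Pparg values was not tested, and in a whole muscle fewer cells of a type and less RNA per cell cannot be told apart.

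ERRα, encoded by Esrra, is the PGC-1 partner that controls genes of the respiratory chain and citrate cycle. Esrra read 7.17, 7.29 and 6.98 in WT and 7.03, 7.19 and 7.21 in MKO. The MKO values lay inside the WT range, and the difference was −0.0028 (SE 0.12, 95% interval −0.25 to 0.25, limma adjusted p = 0.9997). Its 8 probe sets, all bright, split into 5 higher and 3 lower, from −0.41 to 0.36. For 17362117 the arrays did not overlap, at 7.70, 7.74 and 8.01 in WT and 8.30, 8.06 and 8.18 in MKO, while 17362120 had every MKO array below WT. The diffSplice test gave an adjusted p = 1 for Esrra, so these opposite moves did not pass the test of unequal change.

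Esrrb encodes ERRβ, best known from stem cells and the inner ear. It read 5.65, 6.07 and 5.74 in WT and 5.93, 5.45 and 5.37 in MKO. MKO replicate 1 lay among the WT arrays and the other MKO arrays below them, a difference of −0.23 (SE 0.17, 95% interval −0.61 to 0.14, limma adjusted p = 0.9997). Without MKO replicate 1 it was −0.41 with an unadjusted p under 0.05 (limma adjusted p = 0.856). Dim probe sets carried much of it: with the 8 bright ones alone the difference was −0.064 (SE 0.12), whereas the 5 dim ones ranged from −1.96 to 1.10. Probe set 17277511 read 5.20, 4.83 and 5.31 in WT and 4.92, 0.783 and 3.74 in MKO. Among all its probe sets 17277505, another dim one, had the smallest p, with 5.39, 5.42 and 5.04 in WT and 4.69, 3.62 and 4.58 in MKO (−0.98, SE 0.43, limma adjusted p = 0.979).

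Esrrg encodes ERRγ, the receptor enriched in slow, well-vascularised fibres. Its WT arrays were nearly equal, at 6.73, 6.71 and 6.75, and its MKO arrays read 7.11, 6.84 and 6.78. All MKO arrays lay above WT, by 0.034 at the nearest, and MKO replicate 1 was the highest. The difference was 0.18 (SE 0.12, 95% interval −0.077 to 0.44, limma adjusted p = 0.9997), and it was 0.0815 without MKO replicate 1. On its 11 bright probe sets it was 0.24 (SE 0.11, limma adjusted p = 0.9999, unadjusted p under 0.05), with 7.26, 7.45 and 7.36 in WT and 7.72, 7.58 and 7.49 in MKO, and 8 of the 11 were higher. On that measure 4.34% of the 16671 genes tested had an unadjusted p under 0.05. Probe set 17220629 showed the largest difference, with 5.61, 5.18 and 6.02 in WT and 6.88, 6.40 and 6.27 in MKO (0.91, SE 0.31, adjusted p = 0.979).

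**Figure D3:**
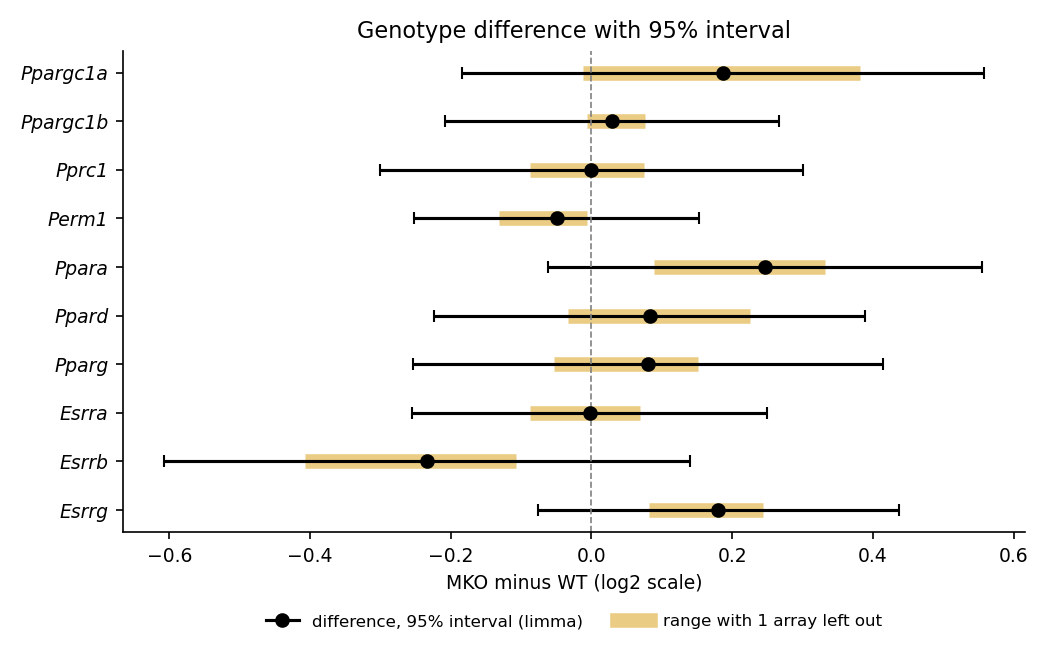
Difference between MKO and WT for each regulator in log2 units, with the 95% interval from limma as a line and the range with any 1 array left out as a band. Every interval crosses 0, and the bands of Ppara, Esrrg, Esrrb and Perm1 stay on one side of it.

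Single arrays weighed on several regulators at once. MKO replicate 3 had the highest value of the 6 arrays for 6 regulators: Ppargc1a, Pprc1, Perm1, Ppara, Ppard and Pparg. After quantile normalization it was still highest for 5, and the share of all genes highest on that array was not counted. Its median over all single-symbol probe sets (5.16) lay within the range of the arrays (5.08 to 5.17). Its median gene value, 4.373, was the lowest of the 6, the highest being 4.465 in WT replicate 3. Its muscle fibre list mean of 10.50 was the highest of the 6. So were its means of the coregulator (6.80), PPAR target (8.52) and ERR and NRF target (8.845) lists described below. Its means of the PGC-1α input and other PGC-1 target lists were not. Over the 127 probe sets, 73 were higher and 54 lower in MKO, and 7 had an unadjusted p under 0.05, or 5.51%, against 4.98% of all probe sets. None of these 7 passed the adjusted threshold. The diffSplice test called 0 of the 10 regulators, against 0.139% of 20833 genes, and 0 of the 10 had an unadjusted p under 0.05 in it, against 6.12% of genes. The arrays' order in Ppargc1a was most closely matched among 10384 brighter genes by Prcc (Pearson r = 0.994 over the 6 arrays), Stmn2 (0.986) and Aym1 (0.982). These correlations are descriptive, since 53 genes had an r over 0.9 and all share the same arrays.

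Partners and coregulators came next in the pathway, and none stood out. Of 22 measured genes for RXRs, histone acetyltransferases, deacetylases and corepressors, 8 were higher and 14 lower, with a median of −0.02. By limma 0 passed, and 0 had an unadjusted p under 0.05. Those with the smallest p were Kat2a (−0.25, SE 0.14; −0.051 with the median of its probe sets), an acetyltransferase that restrains PGC-1α, Rxrg (0.26, SE 0.17), the RXR of skeletal muscle, and Lpin1 (0.15, SE 0.11), a lipid phosphatase that also coactivates PPARα with PGC-1α. Rxrg read 5.26, 5.15 and 4.89 in WT and 5.24, 5.20 and 5.66 in MKO, with MKO replicate 3 highest as for Ppara. Lpin1 was also highest there, at 9.09. Without that array Rxrg differed by 0.12 and Lpin1 by 0.056.

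Inputs that switch on or modify PGC-1α, such as AMP-activated kinase (AMPK), calcineurin, CREB, MEF2 and FoxO genes, were lower in MKO for 18 of 27 and higher for 9, with a median of −0.04. None passed the adjusted threshold. At an unadjusted p under 0.05 there were 2 higher and 2 lower, against 1.92% and 2.41% of all genes. Ppp3r1, the regulatory subunit of calcineurin, read 5.51, 5.28 and 5.27 in WT and 5.76, 5.79 and 5.77 in MKO (0.42, SE 0.13). Its MKO arrays were tightly grouped above WT, but the median of its 5 probe sets gave a difference of 0.045. Foxo1, the fasting transcription factor, read 6.48, 6.38 and 6.42 in WT and 6.69, 6.69 and 6.89 in MKO (0.33, SE 0.11), without overlap. Prkaa1, the AMPK α1 subunit, was lower at 7.25, 7.49 and 7.51 in MKO against 7.77, 7.88 and 7.53 in WT (−0.31, SE 0.12). These 3 had adjusted p = 0.9997. The other lower gene at that unadjusted p, named after its values were seen, was Prkab2, the AMPK β2 subunit (−0.32, SE 0.13). Its MKO arrays all lay below WT, whereas Prkaa2, the AMPK α2 subunit, differed by −0.01 (SE 0.07).

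Among the 5 lists of pathway genes, leaving the cell type markers aside, PPAR target genes of fatty acid use gave the clearest one-sided pattern. Of 28 measured, 21 were higher in MKO and 7 lower, with a median of 0.10, against 46.6% of all genes higher. Their mean was 8.42, 8.34 and 8.28 on the WT arrays and 8.46, 8.44 and 8.52 on the MKO arrays, so the groups did not overlap. By limma none passed the adjusted threshold, 6 were higher at an unadjusted p under 0.05 and 0 were lower, where 1.92% of all genes were higher at that p. Without WT replicate 3 or without MKO replicate 3 the count was 2. This list was written with earlier results on fatty acid genes of these mice known, so its direction is not independent evidence.

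The PPAR target with the smallest p was Cpt1b, the gate of long-chain fatty acids into mitochondria, at 8.25, 8.05 and 8.09 in WT and 8.85, 8.47 and 8.80 in MKO (0.58, SE 0.11, adjusted p = 0.625). It rests on 1 probe set. Plin5, a lipid droplet coat protein, read 7.33, 7.40 and 7.47 in WT and 7.88, 7.87 and 7.84 in MKO (0.46, SE 0.10, adjusted p = 0.666) over 9 probe sets. Pdk4, the kinase that spares glucose in fasting, read 12.00, 11.94 and 11.85 in WT and 12.04, 12.05 and 12.19 in MKO (0.16, SE 0.06). In all 3 genes the MKO arrays lay above WT. MKO replicate 3 had the highest value for Pdk4, as for Ppargc1a and Ppara, but not for Cpt1b or Plin5. The other 3 targets with an unadjusted p under 0.05, named after their values were seen, were Ucp3, a mitochondrial carrier (0.41, SE 0.17), Ehhadh, a peroxisomal enzyme (0.33, SE 0.15), and Acot2, a mitochondrial thioesterase (0.25, SE 0.10). Of these only Ehhadh had every MKO array above WT, and MKO replicate 3 was the highest array for Ucp3 and Ehhadh but not for Acot2. In the other direction Ucp2 (−0.22, SE 0.12) and Fabp3 (−0.15, SE 0.12) had every MKO array below WT. Of the 28 targets, 4 thus had every MKO array above WT (14.3%) and 2 every one below (7.14%). Over all genes these shares were 4.26% and 4.99%.

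**Figure D4:**
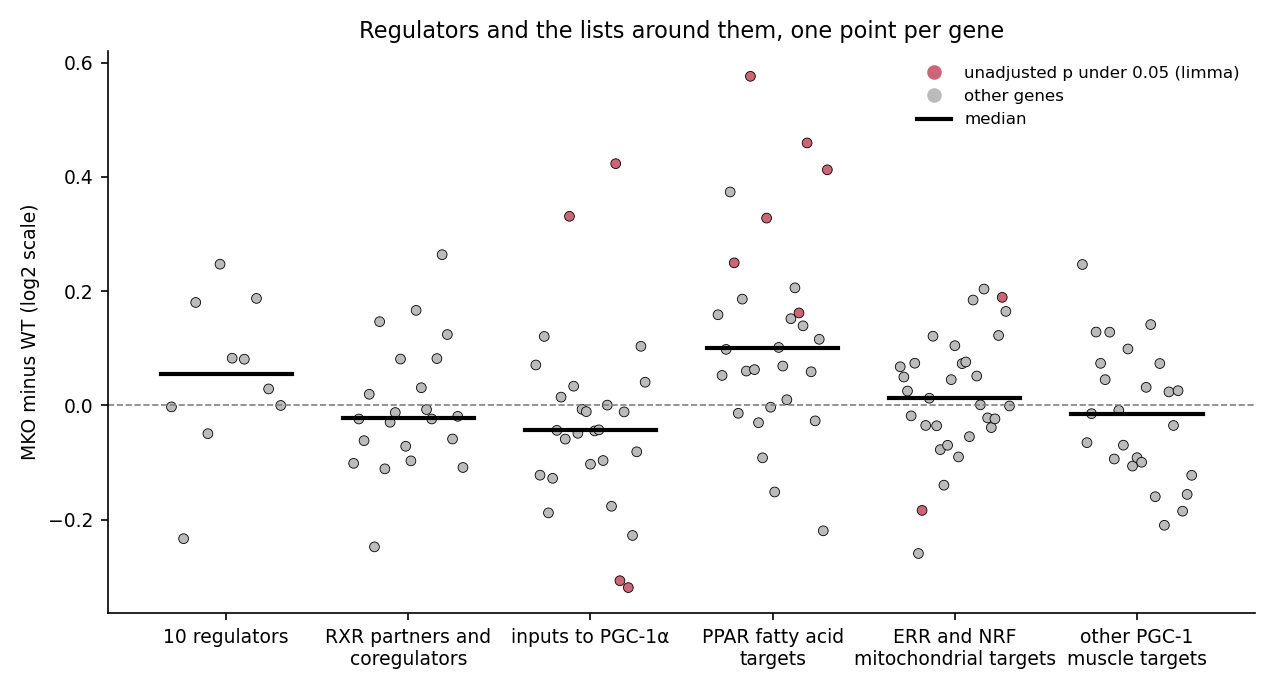
Difference between MKO and WT in log2 units for the 10 regulators and for the genes of 5 lists around them, with 1 point per gene, red where the unadjusted limma p was under 0.05, and a bar at the median. The PPAR targets have 6 red points, all above 0, and a median of 0.10; the regulators have none.

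Mitochondrial targets of ERRs and nuclear respiratory factors were evenly split. Of 31 measured genes, among them respiratory subunits, citrate cycle enzymes and the mitochondrial transcription factors, 17 were higher and 14 lower, with a median of 0.01. None passed, and 1 gene in each direction had an unadjusted p under 0.05, or 6.45% together. Over all genes 1.92% were higher and 2.41% lower at that p, or 4.33% together. Cox6a2, the muscle form of a cytochrome oxidase subunit, read 10.63, 10.57 and 10.48 in WT and 10.35, 10.42 and 10.36 in MKO (−0.18, SE 0.07). Uqcrc2, a core subunit of complex III, read 9.67, 9.69 and 9.53 in WT and 9.79, 9.76 and 9.91 in MKO (0.19, SE 0.08), the opposite direction. For the citrate cycle enzyme gene Mdh2 the difference was 0.10 (SE 0.07). With the median of the probe sets these differences were −0.10 for Cox6a2, 0.077 for Uqcrc2 and 0.018 for Mdh2.

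The remaining PGC-1 targets in muscle, such as slow fibre, glucose transport, kynurenine and antioxidant genes, had 11 of 25 higher and 14 lower, with a median of −0.0146. By limma 0 passed and 0 had an unadjusted p under 0.05. The smallest p belonged to Slc2a4, the insulin-regulated glucose transporter gene (−0.16, SE 0.09), Prdx5, a mitochondrial peroxidase (0.14, SE 0.10), and Txn2, mitochondrial thioredoxin (−0.19, SE 0.13). In each of them the groups overlapped. With the median of the probe sets they stood at −0.35 for Slc2a4, 0.089 for Prdx5 and −0.058 for Txn2. Txn2 differed by −0.062 without MKO replicate 3, and Prdx5 by 0.08 without MKO replicate 2.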

How the data were processed

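Per the labels' protocols, total RNA from 6 mouse soleus muscles was extracted with TRIzol and hybridised to Affymetrix whole-transcript arrays. In the deposited table, log2 values were computed by the authors with RMA, which corrects background, quantile normalizes and combines probes, in Affymetrix Expression Console, per the submitters' processing notes. Its version, the genome build and the annotation release were not stated in the sources used here. The table had 269751 rows, of which 233753 had 1 gene symbol in the platform's older annotation, 5106 several and 30892 none; only the first kind was used.

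Gene values (mean of probe sets) were tested for MKO minus WT with lmFit and eBayes (variance trend) of limma 3.58.1 under R 4.3.3. Tests were two-sided, and p-values were adjusted by Benjamini-Hochberg across the 23152 genes; all p-values come from limma unless another test is named. Probe sets were fitted the same way and with diffSplice. An exact permutation test of 3 against 3 cannot give p below 0.1. The number of arrays limits precision. The labels call the samples biological replicates. The local pooled error test was re-implemented after its published description, and its difference is between group medians, not group means. Fits were tested on simulated data, in which each of these tests also called some unchanged features. The local pooled error test called 105 of 22952 unchanged genes and limma 3, while diffSplice called 66 of 2800. Of 100 brighter genes shifted by 0.5 log2 units, limma recovered 10 and the local pooled error test 11. Of 100 shifted by 1.0, limma recovered 67 and the local pooled error test 86. Smaller shifts were not simulated. With some probe sets moved by 2 log2 units, diffSplice recovered 181 of 200 genes. The members and gene lists were chosen with earlier results of these data known; of 138 list entries 133 were measured. Named genes were all members, the 3 of smallest p per list, the 3 most correlated with Ppargc1a, each member's probe set of smallest p, and Gna13; other probe sets were named after their values were seen. Result tables and figures were made with Python 3.11.15.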

Additional observations from a re-analysis of the deposited data

How the results depend on the processing

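In the 16 alternatives no regulator passed the adjusted threshold, and Ppara, Esrrb and Esrrg kept their direction in all of them. With quantile normalization, however, the arrays of the groups overlapped for Ppara and Esrrg. Differences of the regulators turned sign as follows, where those by the local pooled error test are between group medians rather than means. With quantile normalization, median centring, the median of probe sets and bright probe sets only, Pprc1 stood at 0.0346, 0.0243, 0.0310 and 0.0194, and with bright probe sets Ppargc1b stood at −0.0285. With quantile normalization, median centring, the median of probe sets, array weights and the local pooled error test, Esrra stood at 0.0380, 0.0218, 0.0883, 0.0074 and 0.0168. Perm1 was 0.0025 with the median of probe sets, and Pparg −0.0692 by the local pooled error test. Among moves of over 1.5 times without a change of sign, Ppargc1a was 0.09 with array weights, 0.31 with bright probe sets and 0.33 with the median of probe sets. Ppara was 0.0416 and Perm1 −0.18 by the local pooled error test. Ppara was 0.0474, Ppard 0.21 and Ppargc1b 0.11 with the median of probe sets, and Pparg was 0.20 and Esrrb −0.064 with bright probe sets. Esrrg was 0.11 by the local pooled error test. With 1 array left out the differences ranged from −0.0127 to 0.38 for Ppargc1a, −0.0068 to 0.0763 for Ppargc1b, −0.0880 to 0.0746 for Pprc1, −0.13 to −0.0065 for Perm1, 0.0883 to 0.33 for Ppara, −0.0337 to 0.23 for Ppard, −0.0527 to 0.15 for Pparg, −0.0868 to 0.0688 for Esrra, −0.41 to −0.11 for Esrrb, 0.0815 to 0.24 for Esrrg and −0.0571 to 0.14 for Gna13. Regulators at an unadjusted p under 0.05 numbered 1 instead of 0 with quantile normalization (Ppara), the median of probe sets (Ppargc1a) and bright probe sets (Esrrg), and 0 to 1 with an array left out (Esrrb without MKO replicate 1, Ppargc1a without MKO replicate 2). Under these 5 settings, in that order, 5%, 4.57%, 4.34%, 5.73% and 3.9% of all genes tested had such a p. The leave-one-out fits on the bright probe sets of Ppargc1a, chosen after seeing the data, gave 0.14 to 0.40.

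Over all genes, adjusted calls numbered 1 with array weights, 25 by the local pooled error test and 0 to 1 with an array left out (1 without WT replicate 1 or 3). Of all genes, 444 were higher and 558 lower with unadjusted p under 0.05. The higher ones numbered 805 with array weights, 129 in the brighter part of the genes, 294 from bright probe sets and 300 to 607 with an array left out. The lower ones numbered 1000 with array weights, 371 in the brighter part of the genes, 354 with median centring and 393 to 975 with an array left out, the last without MKO replicate 3. The split with median centring was 545 higher and 354 lower. PPAR targets higher at that p numbered 2 without a variance trend, 11 with quantile normalization and 2 to 8 with an array left out, instead of 6. List medians moved to 0.0992 for the partners and coregulators with the median of probe sets, and to 0.0230 (quantile normalization), 0.0135 (bright probe sets) and −0.0440 to 0.0081 (an array left out) for the other PGC-1 targets. Genes with unequal probe set change numbered 29, and 12 with the replicate number as a block, 0 with bright probe sets and 10 to 144 with an array left out (12, 10, 15, 83 and 144 without WT replicate 1, WT replicate 2, MKO replicate 2, MKO replicate 1 and MKO replicate 3).

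Replicate numbers did not pair the arrays: deviations of same-numbered arrays correlated at −0.0881, 0.0907 and −0.24. With the replicate block 399 genes were higher and 474 lower with unadjusted p under 0.05, 0 passed, and no call for a regulator changed (Ppara 0.25). The causes of these shifts were not tested.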
